A study of Mus musculus with 10 samples.

Results

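The transcripts described here are those of 9 apolipoproteins, *Apoa1*, *Apoa2*, *Apoa4*, *Apoa5*, *Apob*, *Apoc1*, *Apoc2*, *Apoc3* and *Apoe*, and of *Mttp*, the microsomal triglyceride transfer protein. They were chosen by symbol, and each had 1 gene among the 15126 genes of the deposited table. All 10 reached a mean of 1 CPM (a gene's reads scaled to the depth of the library), as did 11041 genes in all. The libraries came from liver of 5 *db/db* mice, which lack the leptin receptor and become obese and diabetic. Each mouse received the AAV8-Control vector, an adeno-associated virus of serotype 8 that encodes eGFP and infects hepatocytes well, by tail vein. The mice were 10 weeks old, and livers were taken 5 weeks after infection. Every mouse carried both the genotype and a virus, so no lean or uninfected liver served as a reference, and all values below describe levels and their spread within this group. The promoter that drives the vector is not given in the sources used here. The labels are at odds on the material: they name liver as the tissue and AAV8 as the virus, but also primary hepatocytes as the cell type, with protocols for cells digested with collagenase, cultured overnight and given adenovirus. The study's own account describes whole liver, which is assumed here and was not tested. That each library came from the liver of a separate mouse is assumed too, as the labels name only separate samples.

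Apolipoproteins are the protein surface of the particles that carry lipid in blood. The liver builds very-low-density lipoprotein (VLDL) around a single molecule of apolipoprotein B, which MTTP loads with triglyceride in the endoplasmic reticulum. Apolipoproteins C and A-V set how fast lipoprotein lipase clears that triglyceride, apolipoprotein E binds the receptors that take up remnants, and apolipoproteins A-I and A-II form high-density lipoprotein (HDL). In mouse, 4 of these genes, *Apoa1*, *Apoc3*, *Apoa4* and *Apoa5*, lay within 43.34 kb of chromosome 9, and *Apoc2*, *Apoc1* and *Apoe* within 27.61 kb of chromosome 7. *Apoa2*, *Mttp* and *Apob* stood alone on chromosomes 1, 3 and 12.

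Depth was 19499795 to 35498596 reads in the 5 libraries. The hepatocyte marker list was present in full, with *Alb* averaging 97164 ± 12997 CPM (SD, n = 5). Of 8 enterocyte markers, the other cells that make apolipoprotein B particles, 4 were outside the table, *Vil1* and *Lct* stayed below 1 CPM on average, and the whole list summed to 204 to 234 CPM, mostly from *Anpep* and *Fabp2*. The macrophage list summed to 219 to 450 CPM over the livers and the adipocyte list to 14.8 to 90.1 CPM, the latter mostly from *Cidea*. The median deviation of the longest 10% of transcripts minus that of the shortest 10% ran from −0.076 to 0.055 (log2), with replicate 2 lowest and replicate 1 highest. If whole liver was measured, as assumed, fewer cells that make a transcript and less transcript per cell cannot be told apart.

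Together the 10 transcripts held 4.07 ± 0.171% of all reads (SD, n = 5, range 3.90 to 4.34%), and without *Apoe* 2.28 ± 0.0572%. The spread of the summed share rested on replicate 1 and on the scaling, as the SD was 0.0859 without that library, 0.0682 with TMM factors and 0.0593 with a trend on transcript length and GC content removed. *Apoe* alone made up 43.8 ± 2.69% of the reads of the 10, *Apoa2* 17.2 ± 0.557%, *Apob* 14.0 ± 1.83% and *Apoc1* 11.0 ± 0.777%. The other 6 each held 4.96% or less of these reads on average, down to 1.02 ± 0.132% for *Mttp*. Counting error was below the spread between mice for every member, and the fewest reads of any in a library were 7181 (*Mttp*), a counting error of 1.18%.

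Between genes, levels can be compared only per length, here as CPM per kb of the longest annotated transcript. *Apoa2* (13474 ± 318 CPM per kb) and *Apoe* (12687 ± 1273 CPM per kb) were highest. *Apoa2* exceeded *Apoe* in 4 of 5 livers, but their ranges overlapped and the ratio within a liver, 1.07 ± 0.0946, spanned 1. *Apoc1* followed at 8441 ± 808 CPM per kb and *Apoc3* at 2847 ± 289 CPM per kb, each clear of its neighbours in every library. *Apoa1* (978 ± 254 CPM per kb) was above *Apoc2* (649 ± 59.8 CPM per kb) in 5 of 5 livers, although their ranges over livers ran into each other. *Apoa5* (436 ± 14.6), *Apob* (406 ± 40.0) and *Apoa4* (370 ± 171 CPM per kb) overlapped, with *Apoa5* above *Apob* in 4 livers and *Apob* above *Apoa4* in 3. *Mttp* was lowest, at 104 ± 11.2 CPM per kb, and below *Apoa4* in every liver. With the median transcript length in place of the longest, *Apoe* came before *Apoa2* (21864 and 14510 CPM per kb) and *Apoa5* moved from place 7 to place 5 (1796 CPM per kb), while *Mttp* stayed last.

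**Figure D1:**
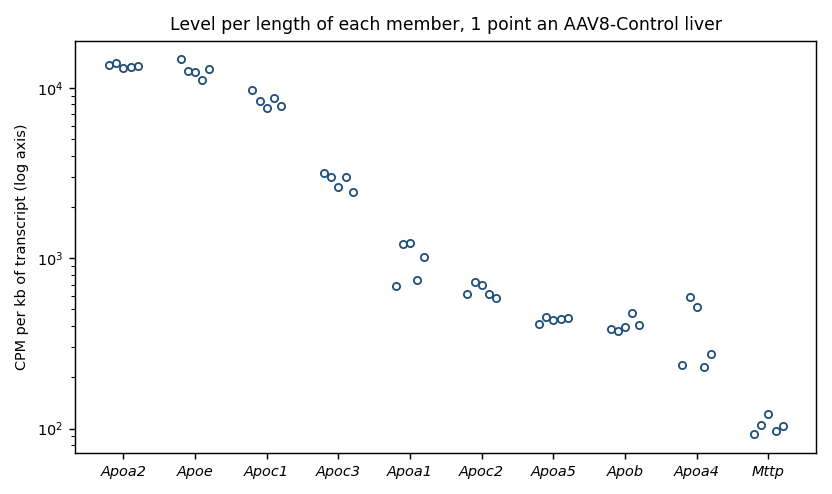
Level per length of the 10 transcripts, in CPM per kb of the longest annotated transcript on a log axis, with 1 point for each of the 5 AAV8-Control livers. *Apoa2* and *Apoe* lie highest, at 11114 to 14646 CPM per kb, and *Mttp* lies lowest, at 92.9 to 122 CPM per kb.

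The members differed widely in how much they varied from library to library, each taken as 1 mouse. The standard deviation on log2(CPM + 1) was 0.65 for *Apoa4* and 0.39 for *Apoa1*, against a median of 0.14 over the 11041 genes, and 99.3% and 96.3% of those genes varied less. At the other end *Apoa2* had a standard deviation of 0.034 and *Apoa5* one of 0.049, with 1.01% and 3.89% of genes varying less. The other 6 members lay between 0.13 and 0.15, in the middle of the table. Since spread depends on level, each member was also set beside the genes within 2-fold of its own mean: 98.6% of the 285 such genes varied less than *Apoa4* and 94.1% of 187 less than *Apoa1*, whereas 5.56% of 18 varied less than *Apoa2* and 3.49% of 172 less than *Apoa5*. The steadiness of *Apoa5* rested on the scaling, as its standard deviation was 0.092 with TMM factors, 0.089 with DESeq2's size factors and 0.13 with a trend on transcript length and GC content removed, and it was 0.018 without replicate 1. That of *Apoa2* was 0.045 to 0.050 under the same 3 treatments. Under them *Apoa4* stayed at 0.65 to 0.66 and *Apoa1* at 0.41.

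**Figure D2:**
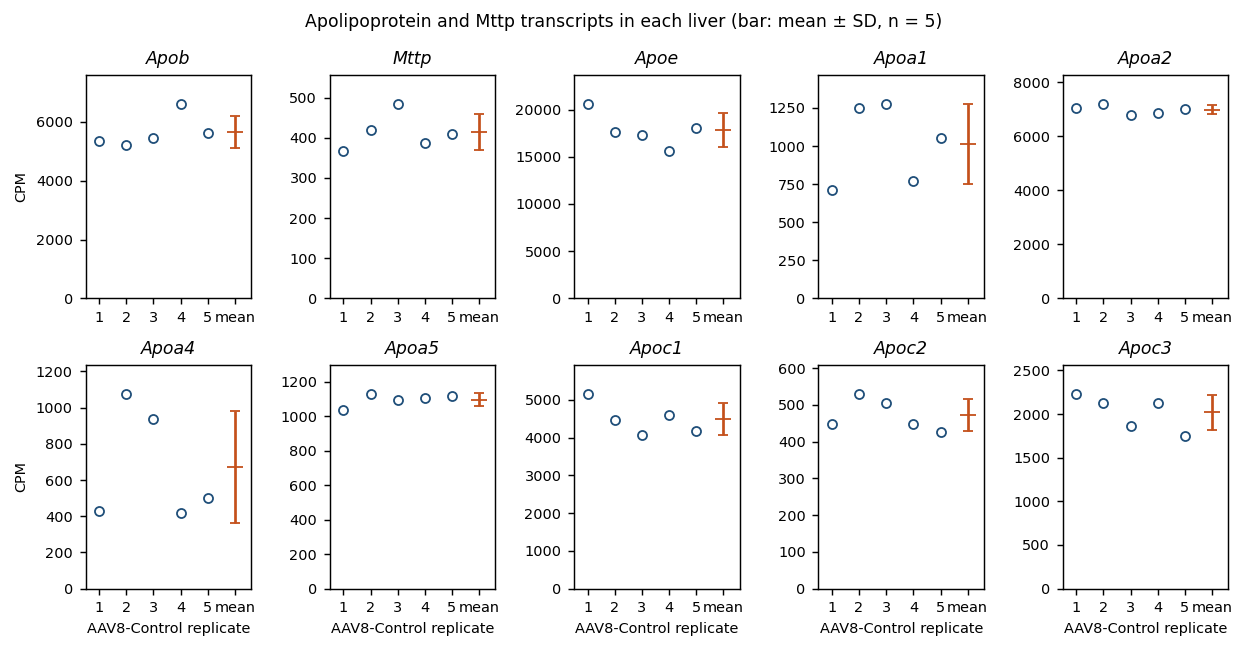
CPM of each transcript in AAV8-Control replicates 1 to 5, with the mean ± SD (n = 5) at the right of each panel and every axis starting at 0. *Apoa4* and *Apoa1* spread widely, from 419 to 1076 and from 713 to 1278 CPM, whereas *Apoa2* lies between 6790 and 7203 CPM in every liver.

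*Apob* (ENSMUSG00000020609; GRCm38 chromosome 12, 7977648 to 8016835, plus strand) encodes the scaffold of VLDL and low-density lipoprotein (LDL). Its levels in replicates 1 to 5 were 5367, 5212, 5470, 6620 and 5636 CPM, a mean of 5661 ± 558 CPM (SD, n = 5). Replicate 4 stood above the other 4 livers, which lay within 5212 to 5636 CPM. Without it the standard deviation on the log2 scale fell from 0.14 to 0.047. Leaving out the most extreme of 5 values tends to lower a spread. Dixon's check of the gap over the range (critical value 0.71 for 5 samples) flagged no library. It covered 16 sets of values, which were the members, the ratios within a liver and the share of reads.

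*Mttp* (ENSMUSG00000028158; chromosome 3, 138089854 to 138144968, minus strand) read 368, 418, 485, 386 and 410 CPM, a mean of 414 ± 44.5 CPM. Replicate 3 was highest and replicate 1 lowest, and without replicate 3 the standard deviation on the log2 scale was 0.084 in place of 0.15. On the opposite strand *Trmt10a*, which was in the table, overlaps 1521 bases of *Mttp*, and *Gm43691* overlaps it too. These overlaps are of whole gene spans, introns included, and overlap of exons was not determined. Strand use in the counting is not stated. As only unambiguous reads were counted, reads in exons shared with another gene of the annotation used would without strand have been left out of *Mttp*. MTTP works as a complex with protein disulfide isomerase, the product of *P4hb*. The ratio of *Mttp* to *P4hb* reads, like the other read ratios below not corrected for length and so a measure of balance between livers rather than between genes, was 0.221, 0.255, 0.256, 0.245 and 0.253 in replicates 1 to 5, or 0.246 ± 0.0146, a coefficient of variation of 5.93% against 10.8% for *Mttp* alone. Replicate 1 carried most of the spread of this ratio, which was 1.997% without it, and without replicate 3 the ratio varied more than *Mttp* alone (6.397 and 5.792%). Against *Apob*, whose protein MTTP lipidates, the ratio of reads was 0.0737 ± 0.0115, a coefficient of variation of 15.6%, from 0.0583 in replicate 4 to 0.0886 in replicate 3. That coefficient was 11.3% without replicate 4. Per kb of the longest transcripts the ratios were 0.178 ± 0.0105 to *P4hb* and 0.259 ± 0.0405 to *Apob*, and with the median lengths 0.0617 ± 0.00366 and 0.187 ± 0.0291.

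*Apoa1* (ENSMUSG00000032083; chromosome 9, 46228580 to 46230466, plus strand) encodes the main protein of HDL and the activator of the cholesterol-esterifying enzyme LCAT. It was at 713, 1248, 1278, 769 and 1053 CPM, a mean of 1012 ± 263 CPM and a range of 1.79-fold. Replicates 2 and 3 were high, 1 and 4 were low, and 5 lay between. *Apoa2* (ENSMUSG00000005681; chromosome 1, 171225054 to 171226379, plus strand), which encodes the protein second to apolipoprotein A-I in HDL, was at 7058, 7203, 6790, 6853 and 6992 CPM. Its mean of 6979 ± 165 CPM had a coefficient of variation of 2.36%, and the highest and the lowest liver were 1.06-fold apart. The ratio of reads of *Apoa1* to *Apob*, the main proteins of HDL and of VLDL and LDL, ran from 0.116 in replicate 4 to 0.239 in replicate 2, with a mean of 0.182 ± 0.0564, whereas per kb *Apoa1* was the higher, at a ratio of 2.45 ± 0.760 with the longest and 1.73 ± 0.536 with the median lengths.

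*Apoa4* (ENSMUSG00000032080; chromosome 9, 46240696 to 46243459, plus strand), whose protein rides on triglyceride-rich particles and HDL, varied most of the 10. It was at 431, 1076, 937, 419 and 498 CPM, a mean of 672 ± 310 CPM and a range of 2.57-fold. Replicates 2 and 3 stood apart from the other 3 livers, and no liver lay between 498 and 937 CPM. The annotated transcripts on the opposite strand, *Gm47528* and *Gm10680*, overlap the gene, and whether the annotation used for counting held them was not determined.

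*Apoa5* (ENSMUSG00000032079; chromosome 9, 46268633 to 46271919, plus strand) encodes an apolipoprotein that promotes triglyceride clearance by lipoprotein lipase. It was at 1035, 1131, 1098, 1106 and 1117 CPM, a mean of 1097 ± 36.8 CPM, with replicate 1 lowest. The antisense gene *Gm47544* overlaps it. *Apoc3* (ENSMUSG00000032081; chromosome 9, 46232933 to 46235636, minus strand), whose protein slows that clearance, was at 2231, 2125, 1864, 2128 and 1745 CPM, a mean of 2019 ± 205 CPM. Replicates 3 and 5 lay below the other 3. The ratio of reads of the promoter of clearance to its inhibitor, *Apoa5* to *Apoc3*, was 0.549 ± 0.0676, lowest in replicate 1 at 0.464 and highest in replicate 5 at 0.640, and per kb it was 0.155 ± 0.0191 with the longest and 0.407 ± 0.0501 with the median transcript lengths.

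*Apoc2* (ENSMUSG00000002992; chromosome 7, 19671579 to 19677941, minus strand) encodes the cofactor that lipoprotein lipase requires. It was at 449, 530, 504, 448 and 426 CPM, a mean of 471 ± 43.5 CPM, with replicates 2 and 3 above the other livers. The ratio of reads of *Apoc2* to *Apoc3*, cofactor to inhibitor, was 0.235 ± 0.0287, from 0.201 in replicate 1 to 0.270 in replicate 3, and per kb it was 0.229 ± 0.0280 with the longest and 0.169 ± 0.0206 with the median lengths. A read-through gene on the same strand, *Gm44805*, spans most of *Apoc2* in GENCODE M21. Only unambiguous reads were counted, so where the annotation used for counting held both genes, reads in exons of both were left out. The overlap was taken from whole gene spans, and that of exons was not determined. Whether it held *Gm44805* was not determined.

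*Apoc1* (ENSMUSG00000040564; chromosome 7, 19689481 to 19692660, minus strand), whose protein hinders particle uptake and lipase action, was at 5155, 4460, 4065, 4603 and 4169 CPM, a mean of 4490 ± 430 CPM. *Apoe* (ENSMUSG00000002985; chromosome 7, 19696109 to 19699188, minus strand), the ligand for LDL receptor family members, ranked 5th of all genes in mean CPM. It was at 20621, 17664, 17349, 15648 and 18032 CPM, a mean of 17863 ± 1792 CPM. Both were highest in replicate 1, and without it their standard deviations on the log2 scale were 0.083 and 0.091 in place of 0.13 and 0.14. With the length and GC trend removed, that of *Apoe* was 0.050.

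The order of the livers was compared between members. *Apoa4*, *Apoa1* and *Apoc2* had their 2 highest levels in the same livers, replicates 2 and 3, and *Mttp* did as well, as did 7.22% of the 11041 genes. These 4 kept replicates 2 and 3 as their highest livers with TMM factors, with DESeq2's size factors, when scaled without the members and the 10 most abundant genes, and with the length and GC trend removed. The share of all genes with this order was taken in plain CPM only, so none is given beside these 4 treatments. *Apob* was highest and *Apoe* lowest in replicate 4 under the same 4 treatments. In plain CPM *Apoc1*, *Apoc3* and *Apoe* were highest in replicate 1, as were 37.8% of all these genes, a share near that of the members, and this order depended on the scaling. With TMM factors *Apoc3* was at 2115, 2152, 1878, 2199 and 1746 CPM, highest in replicate 4, as it also was with DESeq2's size factors and with the trend removed. *Apoc1* was highest in replicate 4 with the trend removed, and *Apoe* stayed highest in replicate 1 under all 4. These orders are a description of 5 libraries that share their preparation, too few for a correlation.

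**Figure D3:**
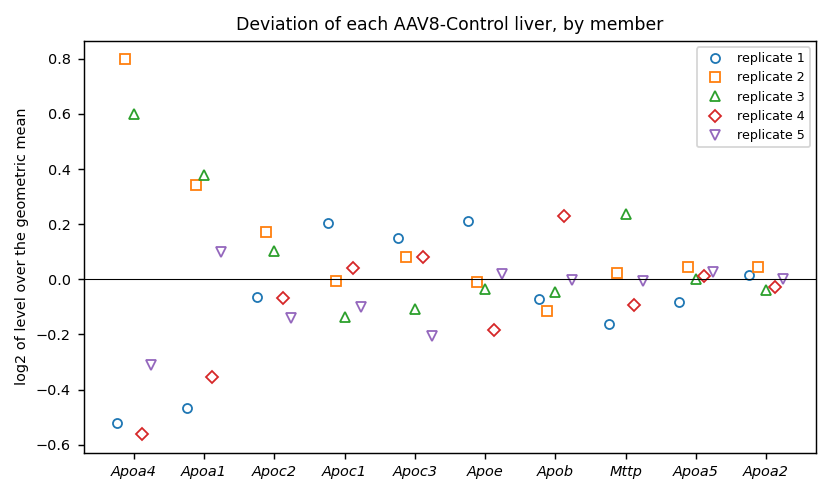
Deviation of each AAV8-Control liver from the geometric mean of the 5, as log2, for each member (symbols mark replicates 1 to 5). Replicates 2 and 3 lie highest in *Apoa4*, *Apoa1* and *Apoc2*, replicate 1 lies highest in *Apoc1*, *Apoc3* and *Apoe* (in *Apoc3* replicate 4 does with TMM factors, DESeq2's size factors or the trend removed, and in *Apoc1* with the trend removed), and all points of *Apoa2* lie near 0.

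Promoter sequence of *Apoa4* and *Apoa1*, the most variable members, of *Apoc2*, which was highest in the same pair of livers, and of *Apoa2*, the steadiest in plain CPM, is printed here. *Mttp*, highest in that pair of livers as well, is not printed because the start of its RefSeq window lies 1.55 kb inside the annotated gene. The stretches come from RefSeq windows of 300 bases on GRCm38.p6, which were found for 8 of the 10 members, and only the bases before the annotated start of the gene are shown, 5′ to 3′. Their lengths differ: 250 bases for *Apoc2* and *Apoa2*, 200 for *Apoa1* and 102 for *Apoa4*. The RefSeq starts of *Apoa1* and *Apoa4* lie 0.05 and 0.148 kb inside the annotated gene. A lack of matches in a shorter stretch is therefore not comparable with that in a longer one. Capitals mark matches, on either strand, to CAAAGNNCA (the core bound by HNF4-type receptors), TGTTTNC (the forkhead core) and TATAAA (the TATA box core), which were chosen after the values were seen.
Apoa1, chr9:46228380-46228579, plus strand: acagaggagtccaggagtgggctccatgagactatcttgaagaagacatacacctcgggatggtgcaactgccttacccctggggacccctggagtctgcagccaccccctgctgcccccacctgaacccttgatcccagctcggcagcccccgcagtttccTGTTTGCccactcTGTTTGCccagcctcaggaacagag
Apoa4, chr9:46240594-46240695, plus strand: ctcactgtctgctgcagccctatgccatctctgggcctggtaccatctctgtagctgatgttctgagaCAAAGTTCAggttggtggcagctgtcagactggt
Apoc2, chr7:19677942-19678191, minus strand: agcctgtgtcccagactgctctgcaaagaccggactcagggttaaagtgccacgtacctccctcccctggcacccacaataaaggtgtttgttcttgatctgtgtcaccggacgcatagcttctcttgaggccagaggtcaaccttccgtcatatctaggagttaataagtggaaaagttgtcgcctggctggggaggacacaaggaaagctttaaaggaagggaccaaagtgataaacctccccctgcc
Apoa2, chr1:171224804-171225053, plus strand: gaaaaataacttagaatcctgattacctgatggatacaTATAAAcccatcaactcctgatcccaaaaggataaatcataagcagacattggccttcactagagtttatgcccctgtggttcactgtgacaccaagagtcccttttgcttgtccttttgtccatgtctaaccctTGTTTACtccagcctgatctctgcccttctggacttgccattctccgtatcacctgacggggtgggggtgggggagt
*Apoa1* held 2 forkhead matches, both TGTTTGC, and *Apoa4* a single receptor match, CAAAGTTCA. *Apoa2* held a forkhead match and a TATA match, and *Apoc2* held none of these letters. The 8 members have 12 whole windows, as a gene can have several starts. Of these 12 windows 2 held the receptor core (1 of *Apoa4* and 1 of *Apob*), 6 the forkhead core and 5 the TATA core, against 6.36%, 20.5% and 13.6% of the 32851 windows of all genes. By gene, 2, 5 and 4 of the 8 members held them. Windows of 1 gene can overlap, so a single match can count more than once. These are matches of letters, not sites shown to be bound, and in the printed stretches no match overlapped another.

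The genes around the members were read from lists of the pathway, with levels as means over the same 5 livers. Of 20 other apolipoproteins 19 were in the table and 14 reached 1 CPM. The highest per length were *Apoh* (beta-2-glycoprotein I, 1638 CPM per kb), *Clu* (clusterin, 649 CPM per kb), *Apof* (415 CPM per kb) and *Apoc4*, which lies beside *Apoc2* (267 CPM per kb). *Apoh*, at 1949 ± 187 CPM (SD, n = 5), thus stood between *Apoc3* and *Apoa1* per length. The most variable were *Saa2* and *Saa1*, acute-phase apolipoproteins of HDL, at 22.5 ± 11.7 and 35.1 ± 14.9 CPM, both with replicate 4 highest. The median standard deviation of this list was 0.26 (log2), above the 0.14 of all genes.

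Of 43 genes of VLDL assembly and secretion 41 reached 1 CPM, with a median standard deviation of 0.10 (log2). *P4hb* was highest per length, at 587 CPM per kb, followed by the microsomal lipid hydrolases *Ces1d* (498 CPM per kb) and *Aadac* (316 CPM per kb) and the triglyceride-forming enzyme *Dgat2* (315 CPM per kb). *Sar1a*, a GTPase of the COPII coat, was the steadiest of the list above 10 CPM, at 65.5 ± 1.53 CPM. The carboxylesterases *Ces3a* (385 ± 126 CPM) and *Ces3b* (85.8 ± 21.9 CPM) varied most. These are close paralogs, and as only uniquely aligned reads were counted, reads that match both equally were left out of their levels.

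Of 24 lipoprotein receptor and uptake genes 21 reached 1 CPM. *Cd36*, a fatty acid and oxidized lipoprotein receptor, was highest per length at 126 CPM per kb (427 ± 21.9 CPM), followed by the syndecans *Sdc4* (97.4 CPM per kb) and *Sdc1*, the heparan sulfate remnant receptor (84.1 CPM per kb), and by *Scarb1*, the HDL receptor (51.9 CPM per kb). On average all 4 were below every apolipoprotein among the members, and only *Cd36* was above *Mttp*. *Hspg2* (24.4 ± 9.26 CPM) and *Stab1* (33.1 ± 11.9 CPM), which sinusoidal endothelial cells also express, varied most and put the 5 livers in the same order.

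All 21 plasma lipase and remodelling genes reached 1 CPM. *Pon1*, the paraoxonase carried on HDL, was highest per length at 593 CPM per kb (916 ± 98.1 CPM), and *Lcat* was at 405 CPM per kb. *Pltp*, the plasma phospholipid transfer protein, varied most at 53.5, 72.5, 87.4, 21.8 and 56.1 CPM, with replicates 3 and 2 highest, as in *Apoa1*. *Angptl8*, an inhibitor of lipoprotein lipase, followed at 71.9 ± 23.5 CPM.

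Of 43 regulators of apolipoprotein genes 42 reached 1 CPM. *Hnf4a*, the receptor that drives many apolipoprotein genes, was highest per length at 142 CPM per kb (618 ± 67.1 CPM), followed by *Cebpa* (130 CPM per kb), *Creb3l3* (91.4 CPM per kb) and *Mlxipl*, the glucose-responsive factor ChREBP (84.7 CPM per kb). *Srebf1*, the lipogenic factor SREBP-1, and *Ppargc1b*, a coactivator, varied most, at 341 ± 116 and 5.46 ± 2.30 CPM. *Creb3l3*, a membrane-bound liver factor that induces *Apoa4*, was at 227, 202, 211, 205 and 205 CPM, a coefficient of variation of 4.76% against 46.2% for *Apoa4*. Whether its level or activity bears on the spread of *Apoa4* was not tested.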

How the data were processed

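Liver RNA of 5 *db/db* mice given the AAV8-Control vector was poly-A selected, primed with random hexamers and sequenced as single reads of 50 bases. The other arm of the series is not reported here, and no between-group comparison is made. Per the submitters' processing notes and the study's methods, the authors aligned reads with STAR 2.0.4b to GRCm38.p2 and counted uniquely aligned, unambiguous reads with featureCounts 1.4.5. The authors deposited CPM, scaled to all reads counted on genes, for 15126 genes in 15236 lines, of which 110 repeat a gene. Dividing by the CPM of 1 read gave whole reads for 100% of values (tolerance 0.1 reads). Depth is given with the results, and counting error covers sampling of reads only.

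Groups were taken from the labels, which say no more of replicates than that they are separate samples, so 1 mouse per library is an assumption. Spread was the standard deviation of log2(CPM + 1), set beside the 11041 genes whose mean reached 1 CPM. Apart from Dixon's check for outliers no test was run, since levels within 1 group are described. No 2 libraries agreed within sampling noise. Lengths and places came from GENCODE M21 (GRCm38), matched by identifier for 15119 genes.

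The members and gene lists were chosen with earlier results of these data known. The text names the 10 members. The rule for list genes and for the genes most alike rested on all libraries and was not used. In its place the list genes highest per length, most variable or steadiest were named, a choice made after their values were seen. Alternatives were a pseudocount of 0.1, no filter, at least 10 reads in every library, DESeq2's size factors (version 1.42.0), TMM (edgeR 4.0.16, R 4.3.3), scaling without the members and the 10 most abundant genes, the median transcript length and each library left out. The order of livers was also read under each scaling. Removal of a trend on length and GC content was added after the data were seen.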

Additional observations from a re-analysis of the deposited data

How the results depend on the processing

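With the median transcript length in place of the longest, levels in CPM per kb were 1237 for *Apoa1*, 14510 for *Apoa2*, 1796 for *Apoa5*, 728 for *Apob*, 11648 for *Apoc1*, 747 for *Apoc2*, 4456 for *Apoc3*, 21864 for *Apoe* and 135 for *Mttp*, each more than 1 SD from the value with the longest transcript, because the shorter length divides the same reads. *Apoa4* has a single annotated transcript. Under the other alternatives the share of reads, the levels per length and the ratios within a liver moved by less than 1 SD. The share of reads ran from 3.999 to 4.11% with any single library left out. For several alternatives this outcome was fixed in advance and is no sign of robustness. Leaving out 1 of 5 libraries cannot move a mean by 1 SD, and the pseudocount enters none of these values. Scaling factors of a library cancel in a ratio within it. Members that varied more than the median gene numbered 5, and 8 when all genes of the table were kept, since the median was then taken over more low genes. No paired analysis was possible because a single group is described and no groups are compared. The limma fit and the exact permutation tests that had been planned were not run for the same reason. Depth limited no member, while 5 libraries limit how well a spread is known. Levels per length depend on which transcript is taken as the gene's length.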
